A study of Mus musculus with 6 samples.

Results

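Genes that mark the epicardium and the fibroblasts of the heart were followed in mouse embryonic stem cells (mESCs) and in the cardiac precursor cell cultures (CPCCs) made from them. The 8 genes were *Wt1*, *Tbx18*, *Tcf21*, *Bnc1*, *Aldh1a2*, *Upk3b*, *Msln* and *Ccdc80*, selected by symbol from the 16279 genes that the gene count table of either cell type lists. Of the 8, 4 were listed for both cell types (*Wt1*, *Tbx18*, *Aldh1a2* and *Msln*), 2 for CPCCs only (*Bnc1* and *Ccdc80*), and 2 for neither (*Tcf21* and *Upk3b*), since a table leaves out a gene with under 10 counts over its 3 libraries. *Ccdc80* and *Tbx18* stood far above their mESC levels in CPCCs, *Msln* stood far below, and the most used epicardial and fibroblast regulators, *Wt1* and *Tcf21*, had few counts or none listed.

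All 6 libraries came from male cells of a C57BL/6 x CAST/EiJ cross, with 3 libraries of mESCs and 3 of CPCCs. The mESCs were clones grown from single cells, each from another blastocyst, and were kept in medium with serum, LIF and the kinase inhibitors PD0325901 (MEK) and CHIR99021 (GSK3). For CPCCs the clones were aggregated in hanging drops in serum medium without LIF, grown as embryoid bodies with ascorbic acid, dissociated, and passaged on gelatin with EGF and FGF2, so that the culture is not a purified cell type. RNA was measured in bulk from polyA-selected cDNA.

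The epicardium is the mesothelial layer that covers the heart. During development some of its cells undergo an epithelial to mesenchymal transition, enter the muscle wall, and become fibroblasts and the smooth muscle of coronary vessels. WT1, TBX18, TCF21 and BNC1 are transcription factors used to mark or trace this lineage, ALDH1A2 makes the retinoic acid that the epicardium secretes, and UPK3B and MSLN are surface proteins of mesothelium. CCDC80 is a secreted matrix protein abundant in fibroblasts.

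The mESC libraries held 6442639 to 6907330 counts and the CPCC libraries 8468819 to 11436062, the largest being S04. Values below are CPM, normalized counts per 1000000 (TMM normalization), and 3 counts in a library, used as the floor for a gene that is not listed, equal 0.298 to 0.463 CPM. Pluripotent cell markers (*Nanog*, *Pou5f1*, *Sox2*, *Esrrb* and *Zfp42*) summed to 1604 to 2172 CPM in mESCs. Among the CPCC libraries, S04 stood apart in its marker sums. It had the least of the pluripotent list, 29.4 CPM against 96.6 in S05 and 132 in S06, and the most of the cardiomyocyte list (*Tnnt2*, *Myh6*, *Myh7*, *Actc1*, *Nkx2-5*, *Tnni3* and *Ryr2*), 417 CPM against 120.5 and 131. In S04 the cardiomyocyte sum was mostly *Actc1* (281 CPM) and *Tnnt2* (103 CPM). *Tnni3* is listed for mESCs only, and *Ryr2* had a mean of 2.48 CPM in mESCs and 1.97 CPM in CPCCs. The smooth muscle list (*Acta2*, *Tagln*, *Cnn1* and *Myh11*) came to 11069, 8753 and 5934 CPM in S04, S05 and S06 and to at most 1.32 CPM in an mESC library. *Nkx2-5*, a defining factor of cardiac precursors, had only 1.59, 0 and 0.917 CPM in the 3 CPCC libraries. Because S04 differed in this way, results that rest on it are given with and without it, and the part these cell types play in the results was not tested. In bulk RNA, fewer cells of a type and less RNA per cell cannot be told apart.

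The starts of 5 of the 8 genes had an entry in the RefSeq promoter set for GRCm38.p6, and for 4 of these the 250 bases before the start are printed here because the windows differ widely between the members. The RefSeq start of *Tcf21* lies inside its GENCODE gene, with 31 bases of the window within it, and its window is not shown. Each is written 5′ to 3′ on the strand of its gene, with capitals marking matches, on either strand, to 6 short motifs. The TEAD motif was searched as GGAATG and occurs in 12.6% of the 32841 windows of this length in the set. The motif of GATA factors was written AGATAA (9.99% of windows). The E-box, bound by basic helix-loop-helix factors, was written CANNTG (66.2%). Brachyury and its relatives were searched by the core GGTGTG (16.3%). The motif shared by WT1 and EGR factors was written GTGGGCG (7.02%), and the TATA box was the letters TATAAA (12.4%). No match below overlaps another.
Tbx18: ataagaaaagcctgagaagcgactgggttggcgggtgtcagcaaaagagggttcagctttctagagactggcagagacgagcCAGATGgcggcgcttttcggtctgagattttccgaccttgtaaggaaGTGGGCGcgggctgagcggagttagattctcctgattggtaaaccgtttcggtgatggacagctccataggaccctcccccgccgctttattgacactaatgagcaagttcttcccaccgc
Bnc1: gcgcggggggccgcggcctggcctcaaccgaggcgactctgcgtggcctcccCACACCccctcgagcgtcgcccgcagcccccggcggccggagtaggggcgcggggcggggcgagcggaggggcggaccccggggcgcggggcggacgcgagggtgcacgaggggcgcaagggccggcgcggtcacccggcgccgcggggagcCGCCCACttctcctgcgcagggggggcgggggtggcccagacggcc
Aldh1a2: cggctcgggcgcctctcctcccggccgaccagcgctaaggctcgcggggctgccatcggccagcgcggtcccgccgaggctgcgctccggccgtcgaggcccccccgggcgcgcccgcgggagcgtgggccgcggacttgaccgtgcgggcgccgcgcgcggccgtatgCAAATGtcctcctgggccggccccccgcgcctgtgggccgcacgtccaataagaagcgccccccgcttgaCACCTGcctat
Upk3b: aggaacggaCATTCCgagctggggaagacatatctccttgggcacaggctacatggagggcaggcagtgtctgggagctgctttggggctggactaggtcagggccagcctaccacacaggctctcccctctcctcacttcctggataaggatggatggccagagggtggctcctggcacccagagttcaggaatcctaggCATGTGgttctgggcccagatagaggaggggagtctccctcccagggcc

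The *Tbx18* window (chr9:87731261-87731510, minus strand) holds an E-box that begins 168 bases before the start and, nearer to it, the WT1 and EGR motif at 121. The *Bnc1* window (chr7:81992300-81992549, minus strand) holds the Brachyury core at 198 and the WT1 and EGR motif at 46, both on the reverse strand. In the *Aldh1a2* window (chr9:71215539-71215788, plus strand) E-boxes begin at 81 and 11, and in the *Upk3b* window (chr5:136038246-136038495, plus strand) the TEAD motif begins on the reverse strand at 241 and an E-box at 49. None of the 4 windows holds the letters of the TATA box or of the GATA motif. The windows differ most in CpG content. *Aldh1a2* and *Bnc1* have 40 and 39 CpG dinucleotides and 77.6% and 83.6% GC, where the median window of the set has 6 CpG and 52.4% GC. *Tbx18* has 15 CpG and *Upk3b*, listed in neither table, has 2. A match to letters is a description of the window and not a binding site.

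**Figure D1:**
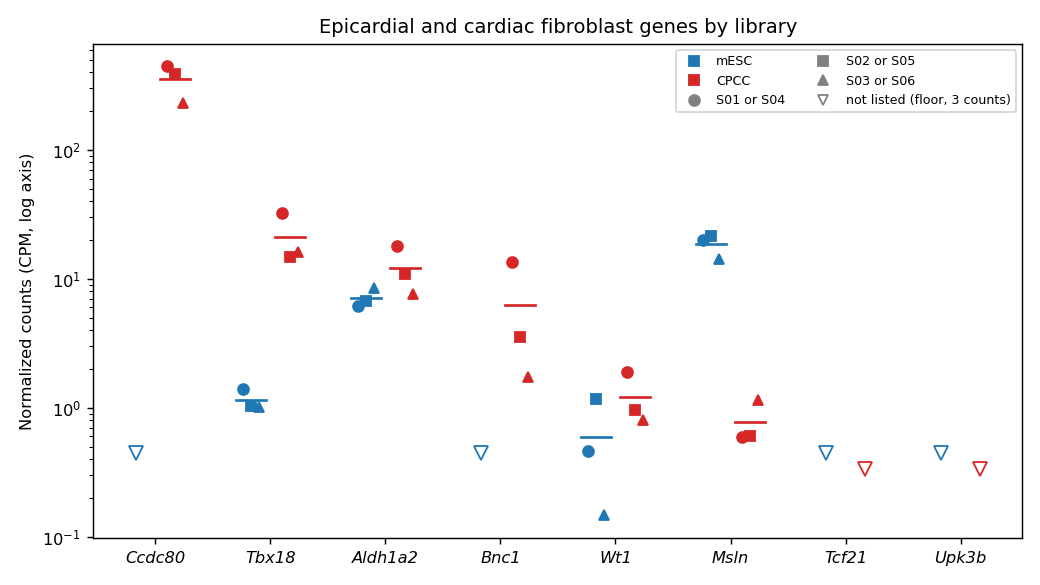
Normalized counts (CPM, log axis) of each of the 8 genes in the 3 mESC libraries (blue) and the 3 CPCC libraries (red), with the mean as a bar and open triangles at the floor of 3 counts for a gene that a table does not list. *Ccdc80* (233 to 444 CPM) and *Tbx18* (14.8 to 32.6 CPM) lie high in CPCCs, *Msln* lies high in mESCs (14.2 to 21.5 CPM), and *Aldh1a2* and *Wt1* overlap.

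The first question was which of the lineage's transcription factors the CPCCs carried. *Tbx18* (chromosome 9, 87702800 to 87731261, minus strand), a T-box factor of the epicardium and the sinus horns, was near the floor in mESCs, with 9, 7 and 7 counts (S01 to S03), and had 328, 122 and 141 counts in CPCCs (S04 to S06). As normalized values these were 1.39, 1.03 and 1.02 CPM before and 32.6, 14.8 and 16.2 CPM after differentiation. Every CPCC library lay above every mESC library, and S04 lay above the other 2 CPCC libraries. The mean rose from 1.15 ± 0.210 CPM (SD, n = 3) to 21.2 ± 9.91 CPM (SD, n = 3). This was a log2 fold change of 4.19 (standard error, SE, 0.45), or 18.3-fold, and passed edgeR's test (quasi-likelihood, Benjamini-Hochberg adjusted p = 6.54e-05). Without S04 it was 3.75, still past the threshold. A two-sided exact permutation test over the 6 libraries gave p = 0.10, the smallest that 3 libraries against 3 allow. Among the 12471 genes tested, 61.4% passed the threshold, 31.7% higher and 29.7% lower in CPCCs, and in 35.3% every CPCC library lay above every mESC library. *Tbx18* had too few counts in mESCs to pass the filter on low counts but for its CPCC libraries, so a gene like it could only be tested if it differed. On the opposite strand *D030062O11Rik*, which neither table lists, shares 970 bases of exon with *Tbx18*, and whether the counting used strand is not given in the sources used here.

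*Bnc1* (chromosome 7, 81966662 to 81992300, minus strand), which encodes basonuclin 1, a zinc finger factor of epicardium, mesothelium and keratinocytes, is not in the mESC table. CPCCs had 135, 29 and 15 counts (S04 to S06), or 13.4, 3.52 and 1.72 CPM. S04 alone held most of the signal, at 5.13 times the mean of S05 and S06. The mean of 6.22 ± 6.30 CPM (SD, n = 3) was at least 13.9-fold higher than the mESC floor of 3 counts per library, and at least 5.85-fold higher without S04. Taken singly, S04, S05 and S06 stood at least 30.0-, 7.85- and 3.84-fold above that floor. The CPCC table alone lists 15.5% of all genes, and 27.1% of those had a bound of at least 10-fold. *Bnc1* ranked 554 among these 2518 genes. The opposite-strand gene *4833418N17Rik*, in neither table, shares 98 bases of exon with it. *Rac2* and *Dnah6* were nearest to it in pattern over the 3 CPCC libraries. *Bnc2*, its paralog, is listed for both cell types and rose from 7.79 ± 1.16 to 18.1 ± 1.24 CPM (SD, n = 3 each; log2 fold change 1.22, SE 0.26, edgeR adjusted p = 0.00327), with 19.1, 16.7 and 18.6 CPM in S04, S05 and S06. The spread of *Bnc1* among CPCC libraries was therefore not seen in *Bnc2*.

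*Wt1* (chromosome 2, 105126529 to 105173615, plus strand), the zinc finger factor on which much epicardial lineage tracing rests, had 3, 8 and 1 counts in mESCs (S01 to S03) against 19, 8 and 7 in CPCCs (S04 to S06). In CPM the mESC values were 0.463, 1.18 and 0.146, and the CPCC values 1.89, 0.970 and 0.802. The groups overlapped, since the mESC library S02 lay above the CPCC libraries S05 and S06. Means were 0.595 ± 0.528 and 1.22 ± 0.585 CPM (SD, n = 3 each). The gene fell under the filter on low counts and was not tested in the main comparison. Summed over libraries, 34 counts in CPCCs against 12 in mESCs gave a ratio of 2.11 (95% counting interval 1.06 to 4.47), which does not include the spread between libraries. Without S04 the ratio was 1.48 (0.647 to 3.47). With no filter the log2 fold change was 1.05 (edgeR adjusted p = 0.326), and a two-sided exact permutation test gave p = 0.30. At this depth a difference in *Wt1* was not detectable beyond the spread between libraries. *Wt1* is also expressed in the developing kidney and gonad. Of the markers *Pax2*, *Pax8*, *Six2*, *Nphs1*, *Nr5a1* and *Amh* of these tissues, *Nr5a1* is in neither table, and together they summed to 9.46 to 11.0 CPM in mESCs and to 5.17, 10.1 and 15.8 CPM in S04, S05 and S06. In mESCs that sum is *Nphs1* alone, which fell from 10.1 ± 0.806 to 1.66 ± 1.25 CPM in CPCCs (SD, n = 3 each; edgeR adjusted p = 0.00348). Most of the CPCC sum was *Pax2* (4.92 ± 2.57 CPM) and *Six2* (2.89 ± 1.09 CPM; SD, n = 3 each), both listed only for CPCCs. The part of such cells in the *Wt1* counts was not tested.

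*Tcf21* (chromosome 10, 22817281 to 22820174, minus strand, GENCODE M21), a basic helix-loop-helix factor needed for cardiac fibroblasts to form, is in neither table. Its counts therefore came to under 10 over the 3 libraries of each cell type, and no fold can be given. Its E protein partners, with which such factors bind E-boxes, were all listed for both cell types. *Tcf12* rose by 2.16 on the log2 scale (SE 0.18, edgeR adjusted p = 1.77e-05), *Tcf4* by 1.59 (0.21, adjusted p = 0.000216) and *Tcf3* by 0.64 (0.24, adjusted p = 0.0435), of which the last lost its call without S01, S02, S05 or S06 in turn (adjusted p 0.101 to 0.144 from edgeR), on library totals without TMM (0.0533) and with missing genes at 3 counts (0.0590). *Msc*, the closest relative of *Tcf21*, had 6.96 ± 1.20 CPM in mESCs and 3.50 ± 2.26 CPM in CPCCs (SD, n = 3 each), with an adjusted p of 0.160 from edgeR. So the partners were present in CPCCs while *Tcf21* itself was not detectable at this depth.

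The enzyme of the group was *Aldh1a2* (chromosome 9, 71215789 to 71296244, plus strand), the retinaldehyde dehydrogenase that carries out the last step of retinoic acid synthesis in the embryo. The mESCs had 40, 46 and 58 counts (S01 to S03) and the CPCCs 182, 90 and 67 (S04 to S06). Normalized, mESC libraries stood at 6.18, 6.77 and 8.48 CPM, CPCC libraries at 18.1, 10.9 and 7.68 CPM. The CPCC library S06 lay below the mESC library S03, so the groups overlapped. Means were 7.14 ± 1.20 CPM and 12.2 ± 5.33 CPM (SD, n = 3 each). The log2 fold change of 0.78 (SE 0.38) did not pass the threshold (edgeR adjusted p = 0.103, two-sided exact permutation p = 0.20). It was 0.39 without S04 and 1.03 without S06, and the second of these passed (edgeR adjusted p = 0.0394).

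*Aldh1a2* also belongs to the retinoic acid pathway, of which 16 other genes were followed. All 16 are in the CPCC table, 5 of them only there. Of the 11 tested, 8 rose, 0 fell and 3 did not pass the threshold (*Aldh1a3*, *Crabp1* and *Rxrb*), where 31.7% of all genes tested rose. The median log2 fold change was 1.29, against 0.031 over all genes tested. Taking the 5 CPCC-only genes at their bounds, it came to 2.36 over 16. Those 5 entered only by their counts in CPCCs, and no such median was taken over all genes. Of the 11, 4 would not have passed the filter on mESC libraries alone. Of the other 7, 5 rose, where 28.3% of all genes that pass on mESC libraries alone did, and their median was 1.18. *Rxrb* was lower past the threshold only without S03, among the alternatives run (edgeR adjusted p = 0.0441). Among the largest rises were *Rarb*, a receptor that is itself induced by retinoic acid (log2 fold change 5.64, SE 0.53) and *Crabp2*, which carries retinoic acid to its receptors (5.42, 0.35). Their adjusted p were 2.94e-05 and 4.8e-06 (edgeR). For *Rarb*, which had 0.618, 1.91 and 0.293 CPM in mESCs, the log2 fold change was 6.68 without the mESC library S02. *Cyp26b1* and *Cyp26a1*, which degrade retinoic acid, are listed only for CPCCs and were at least 20.4- and 15.9-fold higher there. *Cyp26a1*, with 2.58, 4.73 and 14.0 CPM in S04, S05 and S06, had a bound of 8.17-fold without S06. *Aldh1a1*, a paralog of *Aldh1a2*, was at least 14.8-fold higher, but with 15.4, 2.91 and 1.60 CPM in S04, S05 and S06 the bound was 5.04-fold without S04. *Aldh1a3*, the other paralog, had 2.29 ± 1.28 CPM in mESCs and 3.45 ± 1.01 CPM in CPCCs (SD, n = 3 each; edgeR adjusted p = 0.393). *Rdh10*, which carries out the step before ALDH1A2, had 4.99 ± 1.03 CPM in mESCs and rose to 49.9 ± 7.61 CPM in CPCCs (SD, n = 3 each; log2 fold change 3.32, SE 0.26, edgeR adjusted p = 1.13e-05). The gene for the step before thus passed the threshold where *Aldh1a2* did not.

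Of the surface proteins of mesothelium, *Upk3b* was not detectable at this depth and *Msln* fell. *Upk3b* (chromosome 5, 136038496 to 136046487, plus strand, GENCODE M21), a uroplakin of mesothelium and bladder, is in neither table, and neither is its relative *Upk3bl*. *Msln* (chromosome 17, 25748613 to 25754379, minus strand), which encodes mesothelin, went the other way. It had 129, 146 and 97 counts in mESCs (S01 to S03) against 6, 5 and 10 in CPCCs (S04 to S06), or 19.9, 21.5 and 14.2 CPM against 0.596, 0.606 and 1.15 CPM. Each mESC library lay at least an order of magnitude above each CPCC library. The mean fell from 18.5 ± 3.84 to 0.783 ± 0.314 CPM (SD, n = 3 each). With a log2 fold change of -4.54 (SE 0.41; edgeR adjusted p = 2.68e-05), the level was 23.3-fold lower in CPCCs, with a two-sided exact permutation p of 0.10. It remained past the threshold without any 1 library, between -4.90 and -4.35. In 34.5% of the genes tested every CPCC library lay below every mESC library. Like *Tbx18*, *Msln* passed the filter on low counts only through the cell type in which it is high. Its relative *Mslnl* is listed for mESCs only, with 4.33, 3.38 and 2.93 CPM, and was at least 10.6-fold lower in CPCCs. Both mesothelin genes were thus listed in mESCs, and 1 of them in CPCCs.

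*Ccdc80* (chromosome 16, 45094011 to 45127925, plus strand) had by far the most counts of the 8 genes. It is not in the mESC table, and its counts in CPCCs were 4471, 3206 and 2030 in S04, S05 and S06, or 444, 389 and 233 CPM. All 3 libraries were high, and S04 stood 1.43 times above the mean of the other 2. The mean of 355 ± 109.8 CPM (SD, n = 3) was at least 793-fold higher than the mESC floor, and single libraries were at least 992-, 868- and 519-fold higher. This bound ranked 23 of the 2518 genes listed only for CPCCs, whose median bound was 3.30-fold. Without S04 it was 694-fold. *Ccdc80* made up 87.0%, 92.7% and 89.4% of the summed CPM of the 8 genes in S04, S05 and S06. That sum, 511, 419.6 and 260.1 CPM in CPCCs against 28.0, 30.4 and 23.8 CPM in mESCs, is therefore mostly a measure of this gene. Without it, the other genes summed to 66.6, 30.8 and 27.5 CPM in S04, S05 and S06, and only S04 and, narrowly, S05 exceeded the highest mESC library. The relatives of *Ccdc80*, *Srpx* and *Srpx2*, which share a domain with it, are listed only for CPCCs as well. *Srpx2* was at least 92.2-fold and *Srpx* at least 26.0-fold higher there.

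**Figure D2:**
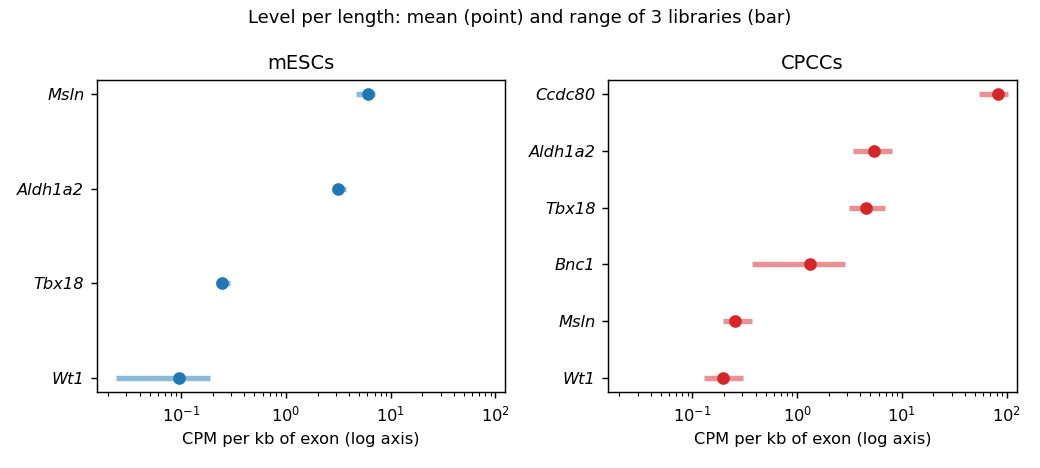
Level per length (CPM per kb of exon, log axis) of the members that each table lists, with the mean of 3 libraries as a point and their range as a bar. In mESCs *Msln* is highest and in CPCCs *Ccdc80*, while *Aldh1a2* and *Tbx18* overlap in CPCCs, as do *Bnc1* with *Msln* and *Msln* with *Wt1*.

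Levels of different genes were compared as CPM per kb of annotated exon (GENCODE M21). In mESCs *Msln* was highest with 6.05 ± 1.25 CPM per kb (SD, n = 3), followed by *Aldh1a2* with 3.15 ± 0.529, *Tbx18* with 0.243 ± 0.0445 and *Wt1* with 0.0961 ± 0.0852. No 2 neighbours in this order overlapped across libraries. The order differed in CPCCs. *Ccdc80* led with 82.8 ± 25.6 CPM per kb (SD, n = 3), and its level lay at the 96.1 percentile of the CPCC table. *Aldh1a2* (5.40 ± 2.35) and *Tbx18* (4.49 ± 2.10) came next with overlapping ranges, near the middle of the table at the 53.4 and 49.0 percentiles. *Bnc1* (1.34 ± 1.36) followed, and its range met that of *Msln* (0.256 ± 0.103), which in turn overlapped *Wt1* (0.197 ± 0.0944, the 5.70 percentile). *Msln* stood at the 54.9 percentile in mESCs and at the 8.05 percentile in CPCCs.

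**Figure D3:**
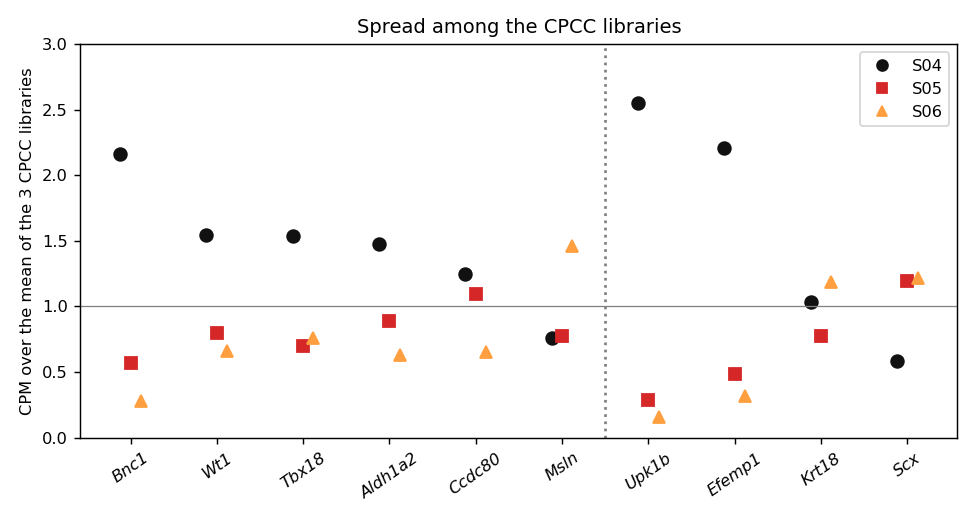
Level of 6 members (left of the dotted line) and of 4 other epicardial genes in each CPCC library, as CPM over the mean of the 3 CPCC libraries (linear axis, 1 marks the mean). S04 (black circles) is the highest library for all members shown but *Msln*, and also for *Upk1b* and *Efemp1*, but not for *Krt18* and *Scx*; of the 14 listed genes of that list it was highest for 6.

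The members varied more among the CPCC libraries than most genes did. The coefficient of variation was 101% for *Bnc1*, 47.9% for *Wt1*, 46.8% for *Tbx18*, 43.6% for *Aldh1a2*, 40.2% for *Msln* and 30.9% for *Ccdc80*, where the median gene of the CPCC table had 26.6%. S04 was the highest library for 5 of the 6 listed members, against 38.8% of all genes in the table. Over the mean of S05 and S06, S04 stood at 5.13 for *Bnc1*, 2.13 for *Wt1*, 2.11 for *Tbx18*, 1.95 for *Aldh1a2*, 1.43 for *Ccdc80* and 0.681 for *Msln*, with a median of 0.967 over the table. *Wt1* and *Msln* had at most 19 counts in a CPCC library, where counting error is large. The endothelial list (*Pecam1*, *Cdh5*, *Tek*, *Kdr* and *Emcn*) summed to 29.3, 15.6 and 14.8 CPM in S04, S05 and S06 and, mostly through *Pecam1*, to 92.3 to 101 CPM in mESCs. S04 was the highest CPCC library for 3 of its 5 genes, among them *Cdh5* with 12.5 CPM against 1.33 and 1.60, while *Pecam1* was highest in S06 and *Kdr* in S05. *Ptprc*, the CD45 of blood cells, had 15.6 CPM in S04 against 2.79 and 0.344, and the cardiomyocyte list given above was also highest there. Whether these cell types have a part in the values of S04 was not tested. The red cell genes *Hba-a1* and *Hbb-bs* are in neither table.

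The wider gene groups of epicardium and fibroblasts were also followed. Of 16 other epicardial and mesothelial genes, 11 were tested, 9 rose, 0 fell and 2 did not pass the threshold (*Lrrn4* and *Rspo1*). The median log2 fold change of the 11 was 3.59, against 0.031 over all genes tested. It was 3.45 without S04 and 5.07 without the mESC library S03. Of the 11, 5 would not have passed the filter on their mESC libraries alone, so that their being tested depended on their level in CPCCs. Of the other 6, 5 rose, where 28.3% of all genes that pass on mESC libraries alone did, and their median was 3.16. S04 was the highest CPCC library for 6 of the 14 listed genes, near the 38.8% over the table. A further 3 are listed only for CPCCs, and *Muc16* and *Dmkn* are in neither table. The largest rise among the tested genes was in *Efemp1*, which encodes the matrix protein fibulin-3 (log2 fold change 7.63, SE 0.98, edgeR adjusted p = 0.000184). It had 288, 63.1 and 41.0 CPM in S04, S05 and S06, and its log2 fold change was 6.31 without S04 and 8.69 without the mESC library S03. *Krt18* and *Krt8*, the paired keratins of simple epithelia, had 6.63 (0.36, adjusted p = 2.44e-06) and 5.91 (0.31, adjusted p = 2.1e-06). These are keratins of many simple epithelia and not only of mesothelium. Of 4 endoderm markers, *Afp* and *Ttr* are in neither table. The others, *Foxa2* and *Sox17*, summed to 13.7, 47.8 and 24.1 CPM in S04, S05 and S06. In an mESC library the sum was at most 2.78 CPM. It was mostly *Foxa2* in S05 (47.1 CPM) and S06, while in S04 *Sox17* was higher, with 7.75 CPM against 5.96 CPM for *Foxa2*. The part of endoderm cells in these values was not tested. *Scx*, a factor of tendon and of a subset of proepicardial cells, was at least 56.9-fold higher, *Gpm6a*, a membrane glycoprotein of mesothelium and neurons, at least 25.9-fold, and the uroplakin *Upk1b* at least 11.3-fold. *Upk1b* again rested on S04, with 12.9 CPM against 1.46 and 0.802, and its bound was 2.52-fold without that library. *Lrrn4*, a mesothelial membrane protein, had 17.3 ± 2.38 CPM in mESCs and 8.53 ± 4.71 CPM in CPCCs (SD, n = 3 each), an adjusted p of 0.0537 from edgeR. It was lower past the threshold by DESeq2 (adjusted p = 0.0324), with missing genes at 3 counts (0.0459) and without S06 (0.00829), so that 1 gene of the list fell under these settings.

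Of 18 other cardiac fibroblast genes, 7 were tested, 5 rose, 0 fell and 2 did not pass the threshold (*Pdgfra* and *Mfap5*). A further 8 are listed only for CPCCs, and *Dpt*, *Meox1* and *Pi16* are in neither table. The 7 tested genes had a median log2 fold change of 4.59, which came to 5.72 when those 8 were added at their bounds (15 genes). These added genes entered only by their counts in CPCCs, and no such median was taken over all genes. Of the 7, 3 (*Pdgfra*, *Col1a1* and *Gsn*) would not have passed the filter on mESC libraries alone. Of the other 4, 3 rose, where 28.3% of all genes that pass on mESC libraries alone did, and their median was 3.25. With so few genes tested, a count of 5 in 7 is read beside the 61.4% of all genes that passed and the 31.7% that rose. *Col1a1*, a chain of type I collagen, had 0.927, 0.588 and 0.146 CPM in mESCs and a log2 fold change of 12.40 (SE 0.40, edgeR adjusted p = 7.86e-07). *Gsn*, the actin-severing protein gelsolin, had 7.95 (0.60, adjusted p = 1.03e-05) and *Ddr2*, a collagen receptor, 5.72 (0.28, adjusted p = 1.61e-06). For *Gsn* the value was 8.86 without the mESC library S01. The collagen genes *Col1a2* and *Col3a1* were at least 5302- and 3729-fold higher, and *Postn*, the matricellular protein periostin, at least 625-fold. *Pdgfra*, a receptor that marks cardiac fibroblasts, had 1.36 ± 0.866 CPM in mESCs and 4.42 ± 2.7 CPM in CPCCs (SD, n = 3 each; log2 fold change 1.69, edgeR adjusted p = 0.0609). It passed by DESeq2 (adjusted p = 0.0415), with missing genes at 0 counts (0.0499) and without S04 (0.0234 from edgeR). *Mfap5*, a microfibril protein, was lower past the threshold, among the alternatives run, only without S04 (log2 fold change -0.89, edgeR adjusted p = 0.00838). Several of these genes, *Col1a1*, *Col1a2*, *Col3a1* and *Gsn* among them, are also expressed by smooth muscle, and the smooth muscle list stood at 5934 to 11069 CPM in the same CPCC libraries. The part of smooth muscle cells in these values was not tested.

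**Figure D4:**
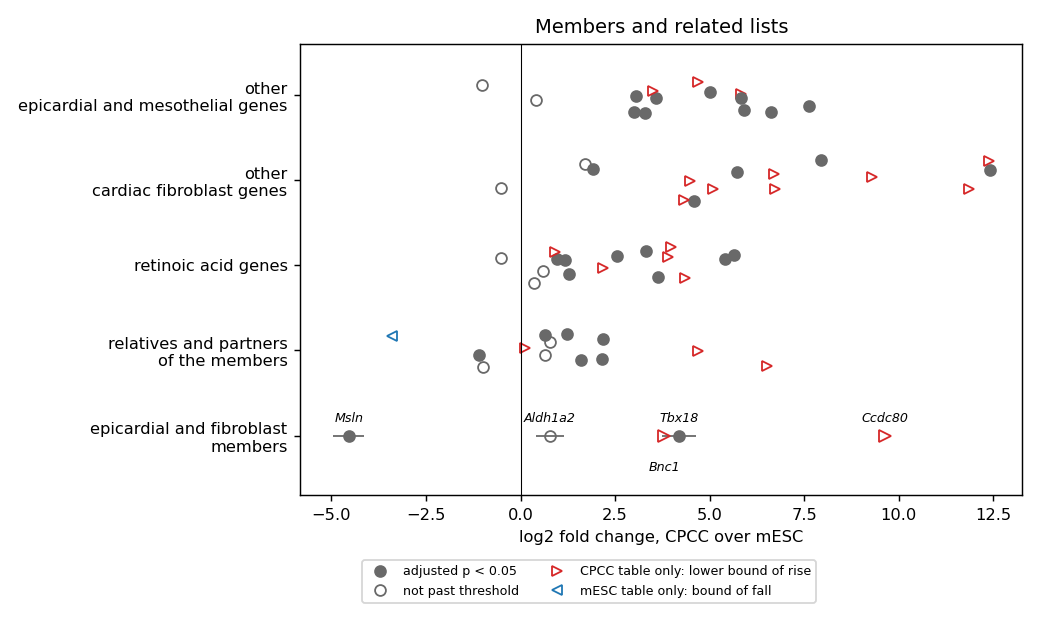
The log2 fold change (CPCC over mESC) of each gene in 4 lists and of the members, with filled circles past an adjusted p of 0.05, open circles not past it, and triangles at the bound of a gene that only 1 table lists (for the members, lines give the standard error). *Msln* (-4.54) lies farthest to the left, followed by the bound of its relative *Mslnl* (at least 10.6-fold lower). *Aldh1a2* (0.78) lies near 0, and *Tbx18* (4.19) and the bounds of *Bnc1* and *Ccdc80* to the right.

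Among 16 relatives and partners of the members, 9 were tested, with 5 higher, 1 lower and 3 not past the threshold (*Tbx15*, *Msc* and *Pawr*), and a median log2 fold change of 0.79. The 6 of 9 called are close to the 61.4% of all genes tested. The largest rise among the tested genes was in *Basp1*, a corepressor that binds WT1 (2.17, SE 0.21, edgeR adjusted p = 3.44e-05), from 83.1 ± 2.02 to 373 ± 98.0 CPM (SD, n = 3 each). *Tcf12* was close to it (2.16), and without S04 *Basp1* had 1.94 and *Tcf12* 2.28. The bounds of *Srpx2* and *Srpx*, listed only for CPCCs, were larger (at least 92.2- and 26.0-fold). *Wtap*, first named as a WT1-associated protein and known as a subunit of the RNA methyltransferase complex, was the only tested gene of this list that fell, by 1.10 on the log2 scale (SE 0.16, edgeR adjusted p = 0.000408). *Pawr*, which encodes a further WT1-binding protein, had 25.8 ± 1.81 and 40.1 ± 16.2 CPM (SD, n = 3 each; edgeR adjusted p = 0.0818). Among the alternatives run, it passed only without S06 (edgeR adjusted p = 0.0189). *Tbx15*, the closest relative of *Tbx18*, had 5.30 ± 3.51 CPM in mESCs and 9.17 ± 4.48 CPM in CPCCs (edgeR adjusted p = 0.284), and *Tbx22* is in neither table. *Wt1os*, the antisense RNA that starts just upstream of *Wt1*, is in neither table. *Upk3a* is listed only for CPCCs, at 0, 1.33 and 0.115 CPM, close to the floor.

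For each listed member the genes nearest in pattern were found by the root mean square difference of log2 CPM centred on its mean, over 6 libraries where the member is in both tables and over the 3 CPCC libraries otherwise. *Tbx18* lay nearest to *Aif1l* (0.18) and *Dmpk* (0.21), and *Msln* to *Zfp296* (0.13) and *Gpr160* (0.16). *Aldh1a2* lay nearest to *Rab12* (0.096) and *Chrnb1* (0.11), and *Wt1*, at its few counts, to *Psd2* (0.23) and *Armc7* (0.26). Of the 13000 other genes listed for both cell types, 10 lay within 0.25 of *Tbx18*, 7 of *Msln*, 255 of *Aldh1a2* and 1 of *Wt1*. Genes that only 1 table lists could not be compared here, so these counts do not show how rare a pattern is. Over 3 libraries more genes can lie close together. *Bnc1* lay nearest to *Rac2* and *Dnah6* (0.019 each), with 83 genes within 0.25, and *Ccdc80* to *4930414N06Rik* (0.0083) and *Uprt* (0.012), with 1888 genes within 0.25.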

How the data were processed

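Bulk RNA-seq of 3 mESC and 3 CPCC libraries was used. The authors deposited raw estimated counts per gene, both alleles together, for mESCs and CPCCs separately, and 17.9% to 21.5% of a library's values are not whole. The submitters' processing notes name STAR 2.7 and mm10. The counter and its use of strand are not given in the sources used here. The columns carry no replicate numbers, so libraries keep their column names, S01 to S03 for mESCs and S04 to S06 for CPCCs. Nothing ties a library to its clone, so p-values measure only the spread between these libraries.

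Counts were rounded, and the 13001 genes in both tables were filtered with filterByExpr and tested with edgeR 4.0.16 (quasi-likelihood test, TMM, R 4.3.3) at a Benjamini-Hochberg adjusted p under 0.05, over 12471 genes. Alternatives were DESeq2 1.42.0, other filters and scalings, missing genes at 0 or 3 counts, and leaving out each library. For a gene in 1 table only, a bound was computed from mean CPM against the mean floor of 3 counts per library (0.448 CPM in mESCs, 0.335 CPM in CPCCs). The intervals of the *Wt1* ratio cover counting error only. Bounds take the mean CPM as it is and allow for neither counting error nor the spread between libraries. Exon lengths and the positions of *Tcf21* and *Upk3b* came from GENCODE M21 (16034 of 16279 symbols matched). Other positions are those of the tables on GRCm38, whose end is often 1 base past the gene. Promoter windows came from RefSeq. log2 CPM used a prior count of 2. The fits were also run on simulated data in which few genes changed, at a fixed dispersion. In these data most genes tested were called, so that run does not show how the fits perform here.

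The members and lists were chosen with earlier results of these data known. Named were all members, the 3 genes of each list with the largest change past the threshold, up to 3 per list with the largest bound, and the 2 genes nearest each member in pattern. A few genes that this rule or the marker lists hold are not reported here. Other list genes were named after their values were seen. Figures were drawn with matplotlib 3.10.9.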

Additional observations from a re-analysis of the deposited data

How the results depend on the processing

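No paired analysis was possible because the columns carry no replicate numbers. *Tbx18* and *Msln* kept their direction and passed the threshold in every fit that tested them, with log2 fold changes of 3.75 to 4.40 and -4.90 to -4.35. With at least 10 counts in every library neither was tested, so that 0 members were higher and 0 lower. Setting genes missing from a table to 0 or to 3 counts gave 3 members higher in each case, since *Bnc1* and *Ccdc80* were then fitted, and leaving out 1 library gave 1 to 2. The number of genes called ranged from 6536 to 9011.

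Requiring 10 counts in every library tested fewer genes, and the numbers higher were then 5 of the epicardial, 3 of the fibroblast and 5 of the retinoic acid list. Missing genes at 0 and 3 counts gave 14 and 13 fibroblast genes. List medians under these 3 settings were 3.23, 5.03 and 4.58 for epicardial genes and 3.32, 9.32 and 5.65 for fibroblast genes, and for retinoic acid genes 3.35 at 0 and 2.48 at 3 counts. Leaving out 1 library gave medians of 3.26 to 5.07 for the epicardial list (highest without S03) and 0.67 to 1.17 for relatives and partners (highest without S03, 1.07 without S06). The cause was not tested. *Lrrn4*, *Pdgfra*, *Mfap5*, *Rxrb*, *Tcf3* and *Pawr* were the list genes whose call changed under at least 1 alternative. Library totals without TMM, added after the data were seen, changed no call of a member. With missing genes at 0 counts the median over all genes was 0.166. Depth limits *Wt1*, *Tcf21* and *Upk3b*, which lie near or under the floor.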
